A study of Mus musculus with 24 samples.

Results

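The 10 genes described here, Pecam1, Cdh5, Emcn, Egfl7, Flt1, Kdr, Tek, Ehd3, Plvap and Nos3, are markers of the endothelium that lines the glomerular and peritubular capillaries of the kidney. They were taken by name from the 56941 genes in the deposited table. The rule names genes without using their values, but they were chosen with earlier results of these data known. Of the 10 genes, 9 had enough counts to be tested among the 12780 genes tested, and Nos3 did not. The study asked how the kidney of the mouse responds to a myocardial infarction (MI). Kidney RNA came from male wild-type C57BL/6J mice, aged 8 to 11 weeks at surgery, in which the left anterior descending coronary artery was tied off permanently or which underwent a sham operation without ligation. The 22 kidneys used here are 8 from sham mice taken 5 days (5d) after surgery, 8 from mice at 5d post-MI and 6 from mice at 28d post-MI. No sham mice of 28d are in the series, so effects of time since surgery, of age and of the infarction cannot be told apart in comparisons of 28d kidneys with sham. Whole-kidney RNA was read from the 3′ ends of mRNA, and each gene's level is given in CPM, its count scaled to the kidney's total counts after TMM normalization. Total counts per kidney were between 2280618 and 3786275.

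Endothelial cells line every vessel, and in the kidney they differ strongly between beds. Glomerular capillaries have open pores and lie against podocytes, which secrete vascular endothelial growth factor (VEGF), while peritubular capillaries run between the tubules and carry thin diaphragms across their pores. VEGF acts on endothelial cells through Kdr (VEGF receptor type 2), its main signalling receptor. Flt1 (VEGF receptor type 1) binds VEGF tightly, signals weakly and is also made as a soluble form. Tek (Tie2) is the receptor for angiopoietins, and Nos3 makes nitric oxide, which relaxes vessels. Loss of peritubular capillaries is a known feature of chronic kidney disease.

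The list of 6 genes of the proximal tubule, the most abundant kidney cells, summed to between 4510 and 6690 CPM in the 22 kidneys. Of these genes Slc5a2 had only 19 counts over all 22 kidneys and was not tested. In 3 kidneys, sham replicates 2 and 6 and 5d post-MI replicate 5, genes of adrenal steroid synthesis were present, with a mean log2 CPM over 5 genes of 7.41, 6.96 and 3.92, against at most 0.32 in the other kidneys. Results that rest on these kidneys are given below with and without them. In a whole-tissue sample, fewer cells of a type and less RNA per cell cannot be told apart.

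The promoters of the receptors are shown because Flt1 and Kdr bind the same ligand and their ratio is compared below, and Tek is the other receptor tyrosine kinase of the set. RefSeq promoter sequences (GRCm38.p6) were found for 6 of the 10 genes, at 8 start sites, and each line gives the 250 bases before the start of the transcript, 5′ to 3′ on the gene's own strand. Capitals mark GGAAG or its reverse complement CTTCC, a form of the core that ETS factors bind. The endothelial regulators Erg and Fli1 belong to the ETS family. Shorter and other forms of the core were not searched, so a window without capitals may still hold an ETS core.
Flt1, chr5:147726012-147726261, minus strand: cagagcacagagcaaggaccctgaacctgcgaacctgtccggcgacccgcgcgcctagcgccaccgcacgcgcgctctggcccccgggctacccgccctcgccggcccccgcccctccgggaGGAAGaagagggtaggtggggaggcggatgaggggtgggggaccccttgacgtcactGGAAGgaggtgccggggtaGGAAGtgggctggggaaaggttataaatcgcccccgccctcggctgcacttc
Kdr, chr5:75978456-75978705, minus strand: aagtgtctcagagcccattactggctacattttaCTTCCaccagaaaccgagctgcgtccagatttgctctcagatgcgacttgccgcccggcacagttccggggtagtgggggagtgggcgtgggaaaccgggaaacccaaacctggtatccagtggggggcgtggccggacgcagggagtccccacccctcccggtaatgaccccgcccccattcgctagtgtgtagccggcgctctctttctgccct
Tek, chr4:94739039-94739288, plus strand: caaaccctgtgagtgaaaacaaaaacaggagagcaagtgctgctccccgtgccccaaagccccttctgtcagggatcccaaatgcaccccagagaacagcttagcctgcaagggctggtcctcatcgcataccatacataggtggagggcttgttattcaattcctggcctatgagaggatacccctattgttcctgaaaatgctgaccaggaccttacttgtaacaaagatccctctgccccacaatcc
The Flt1 window held 3 copies of these letters (GGAAG or CTTCC), the Kdr window 1 and the Tek window 0. Over all start sites of the 6 genes, 5 of 8 windows (62.5%) held at least 1 copy, next to 64.1% of 32851 mouse promoters of the same length, so the share among these genes was near that of all promoters. The letters AGATAA, bound by GATA factors, were in 0 of the 8 windows (9.99% of all promoters), TGTTTA, bound by FOX factors, in 0 (12.0%), and ACAAAG, bound by SOX factors, in 2 (16.5%). Both strands were searched and none of these motifs contains another. A match is a match of letters and does not show binding.

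None of the 9 tested endothelial genes passed the threshold (Benjamini-Hochberg adjusted p under 0.05 over all tested genes, edgeR's quasi-likelihood test) in any of the 3 comparisons. At 5d post-MI against sham the call rate over all genes was 0.0704% (9 of 12780 genes), at 28d post-MI against sham 0.0235% (3 genes) and at 28d against 5d post-MI 0.415% (53 genes). An unadjusted p under 0.05 was reached by 2 of the 9 genes at 5d, Kdr and Cdh5, where 7.9% of all genes did, by 1 of 9 at 28d, Cdh5, where 8.68% did, and by 1 of 9 between the times, Ehd3, where 9.05% did. At 5d, 7 of the 9 log2 fold changes were negative, with a median of −0.15, whereas 49.9% of all tested genes were negative. At 28d against sham, 5 were positive and 4 negative with a median of 0.046, next to 49.6% of all genes that were positive, and 8 of 9 were positive between 28d and 5d with a median of 0.10, next to 48.6% of all genes. The comparisons share kidneys, the sham kidneys in the first 2 and the 5d kidneys in the first and the last, so these counts do not bear on each other independently. The 9 genes also share kidneys, and 26 of their 36 pairs correlated positively within groups (below), so their signs are not independent. Every gene's range at 5d and 28d overlapped that of the sham kidneys. Over all genes, 0.0548% at 5d and 0.258% at 28d showed no overlap with sham, and 0.344% none between the times.

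**Figure D1:**
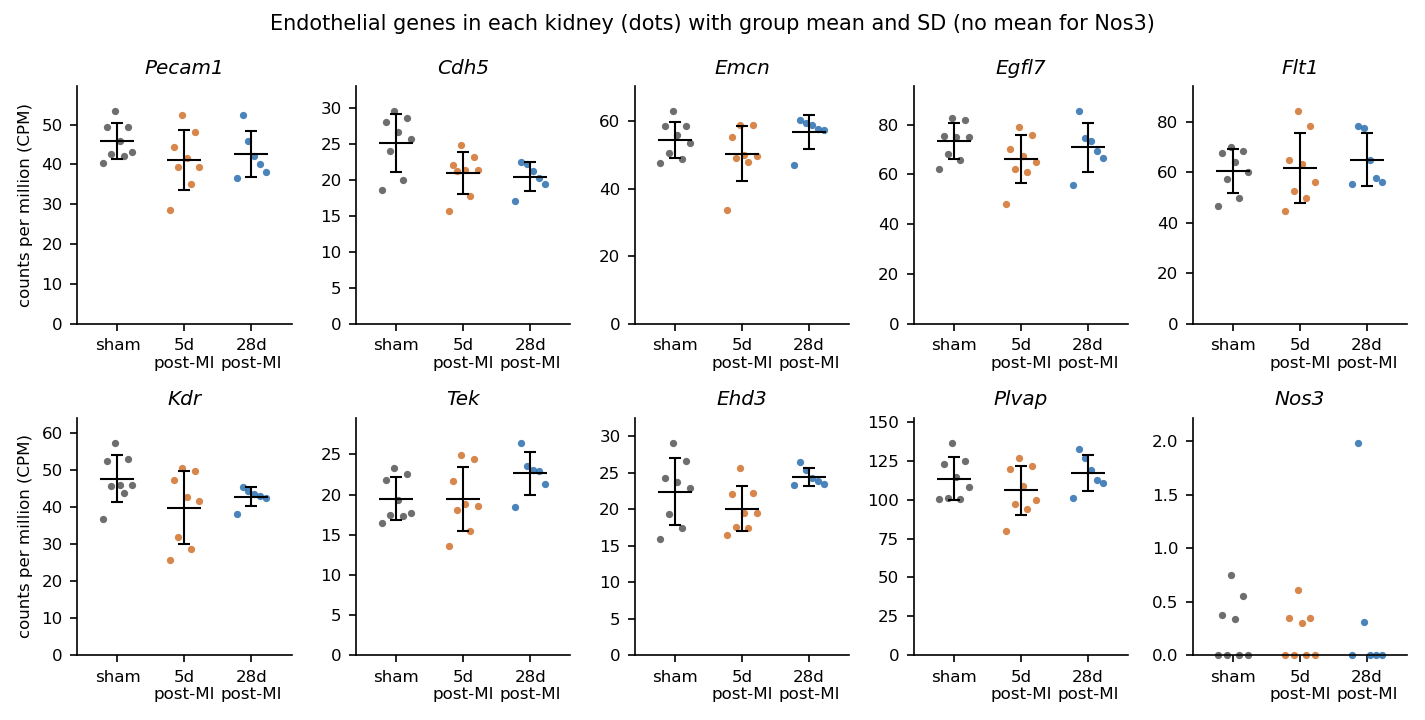
Level of each of the 10 endothelial genes in CPM (vertical axis, from 0) in sham kidneys (n = 8, grey), at 5d post-MI (n = 8, orange) and at 28d post-MI (n = 6, blue), 1 dot per kidney, with horizontal bars at the group mean and error bars of 1 SD, except for Nos3, which has no mean drawn. The groups overlap for every gene, and Nos3 is at 0 in 12 of 22 kidneys.

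**Figure D2:**
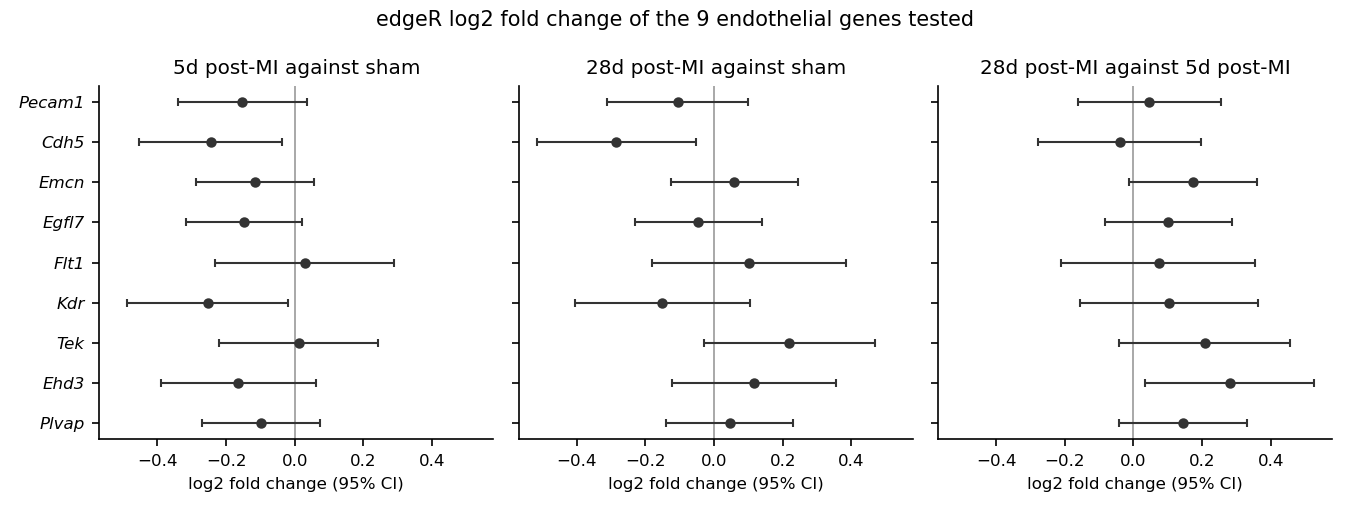
Log2 fold change (horizontal axis) with its 95% confidence interval from edgeR for the 9 tested endothelial genes (rows) in the 3 comparisons (panels). The intervals that leave out 0 are those of Cdh5 and Kdr at 5d, Cdh5 at 28d and Ehd3 between the times, and none of these passed after adjustment.

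Cdh5 (VE-cadherin), the adhesion protein of endothelial junctions, lies at chr8:104101625-104144511, plus strand of GRCm38. It had the lowest unadjusted p of the 9 genes at both times against sham. In sham kidneys it lay between 18.6 and 29.5 CPM with a median of 26.1, at 5d post-MI between 15.6 and 24.8 (median 21.4), and at 28d between 17.1 and 22.4 with a median of 20.7. All 8 kidneys at 5d and all 6 at 28d were below the sham mean of 25.1 ± 4.0 CPM (SD, n = 8), but 3 sham kidneys, replicates 4, 7 and 8, lay within the range of the infarcted mice. The log2 fold change was −0.24 (SE 0.10, 95% CI −0.45 to −0.036, adjusted p = 0.552, edgeR) at 5d and −0.29 (SE 0.11, 95% CI −0.52 to −0.054, adjusted p = 0.454, edgeR) at 28d. Without the 3 kidneys with adrenal genes it was −0.20 (adjusted p = 0.807, edgeR) and −0.23 (adjusted p = 0.755, edgeR). Between 28d and 5d it was −0.040, with an interval from −0.28 to 0.20. Counts of Cdh5 were low, 36 to 94 per kidney, and counting error alone gives a spread of 12.7% against the 13.5% measured within groups.

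Pecam1 (CD31, chr11:106654217-106750628, minus strand) is an adhesion protein of all endothelium and also of platelets and some leukocytes. It lay between 40.4 and 53.3 CPM in sham kidneys with a median of 44.6, between 28.5 and 52.5 at 5d (median 40.5), and between 36.7 and 52.3 at 28d with a median of 41.1. At 5d, 4 of 8 kidneys were below every sham kidney and 2 were above the sham mean, and the lowest, replicate 5, is one with adrenal genes. Its log2 fold change was −0.15 (SE 0.093, adjusted p = 0.725, edgeR) at 5d, where it was −0.061 without the 3 kidneys with adrenal genes, and −0.11 (SE 0.10, adjusted p = 0.841, edgeR) at 28d.

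Emcn (endomucin, chr3:137341067-137432185, plus strand), a mucin-like surface protein of capillary and venous endothelium, was the least variable of the 10 genes from kidney to kidney, with a spread within groups of 12.0%. Sham kidneys lay between 47.6 and 62.8 CPM (median 54.6), kidneys at 5d between 33.5 and 58.9 (median 49.7) and kidneys at 28d between 46.9 and 60.4 (median 58.3). Against sham its log2 fold change was −0.12 (95% CI −0.29 to 0.056) at 5d and 0.058 (95% CI −0.13 to 0.24) at 28d. Between 28d and 5d it was 0.17 (SE 0.092, adjusted p = 0.601, edgeR), with 3 of 6 kidneys at 28d above all 8 at 5d, and 0.10 without the kidneys with adrenal genes.

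Egfl7 (chr2:26580014-26593120, plus strand) is a matrix-bound protein secreted by endothelial cells, and its gene carries the endothelial microRNA miR-126. It lay between 62.3 and 82.7 CPM in sham kidneys (median 75), between 47.8 and 79.2 at 5d (median 66.2) and between 55.7 and 85.2 at 28d (median 71.3). The log2 fold change was −0.15 (SE 0.083, adjusted p = 0.703, edgeR) at 5d and −0.046 (95% CI −0.23 to 0.14) at 28d. Exons of Egfl7 share 264 bases with exons of Gm20532 on the same strand and 64 with exons of Agpat2 on the opposite strand. Both genes cover the 3′ end of Egfl7, but where the 264 bases lie was not examined. Reads in shared bases may have been added to its counts or left out of them, so its values are uncertain in this respect.

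Flt1 (chr5:147561604-147726011, minus strand) and Kdr (chr5:75932827-75978458, minus strand) were the most variable of the tested genes, with a spread within groups of 18.0% and 16.6%, against 7.6% and 9.13% from counting error alone. Kdr lay between 36.8 and 57.2 CPM in sham kidneys with a median of 45.9 and between 38.1 and 45.2 at 28d with a median of 43.3. At 5d its range was 25.6 to 50.6 and its median 42.2. In 3 of the 8 kidneys at 5d, replicates 5, 6 and 7, Kdr was at 31.7, 25.6 and 28.6 CPM, below every sham kidney, and in the other 5 it was between 41.7 and 50.6 CPM, within the sham range. For Kdr the log2 fold change was −0.25 (SE 0.11, 95% CI −0.49 to −0.019, adjusted p = 0.59, edgeR) at 5d, and −0.17 (adjusted p = 0.865, edgeR) without the 3 kidneys with adrenal genes. At 28d it was −0.15 (SE 0.12, adjusted p = 0.802, edgeR), and all 6 kidneys were below the sham mean of 47.6 ± 6.39 CPM (SD, n = 8).

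Flt1 lay between 46.7 and 69.9 CPM in sham kidneys (median 62.1), between 44.7 and 84.0 at 5d (median 59.5) and between 55.2 and 78.1 at 28d (median 61.2). At 5d, 2 kidneys were above every sham kidney and 1 below. Its log2 fold change was 0.029 (95% CI −0.23 to 0.29) at 5d, where its sign turned with several settings given at the end, and 0.10 (95% CI −0.18 to 0.38) at 28d. The membrane-bound and soluble forms of Flt1 are counted together in these gene counts.

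The ratio of Flt1 to Kdr within each kidney does not depend on the scaling between kidneys. Its log2 lay between 0.000 and 0.620 in sham kidneys, with a mean of 0.34 ± 0.23 (SD, n = 8). At 5d post-MI it lay between −0.177 and 1.103, with a mean of 0.63 ± 0.37 (SD, n = 8), and at 28d between 0.305 and 0.832, with a mean of 0.58 ± 0.21 (SD, n = 6). In 7 of 8 kidneys at 5d and 5 of 6 at 28d the ratio was above the sham mean. The difference from sham was 0.30 at 5d (exact permutation test, two-sided, p = 0.0751, adjusted p = 0.225 over 6 ratio tests) and 0.24 at 28d (exact permutation test, p = 0.0689, adjusted p = 0.225), and neither passed. When each of the 22 kidneys was left out in turn, the difference at 5d ranged from 0.229 to 0.412 and passed in 1 case. That case was the fit without 5d replicate 1, the only kidney of the 22 with a log2 ratio below 0. Replicate 1 had the highest Kdr (50.6 CPM) and the lowest Flt1 (44.7 CPM) of its group. Without it the difference was 0.41 (exact permutation test, adjusted p = 0.0103). As it had the lowest ratio of its group, leaving it out could only raise the difference. Without the 3 kidneys with adrenal genes the difference was 0.28 at 5d (exact permutation test, adjusted p = 0.434) and 0.23 at 28d (adjusted p = 0.434, exact permutation test). Between 28d and 5d the ratio differed by −0.055 (exact permutation test, p = 0.774).

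**Figure D3:**
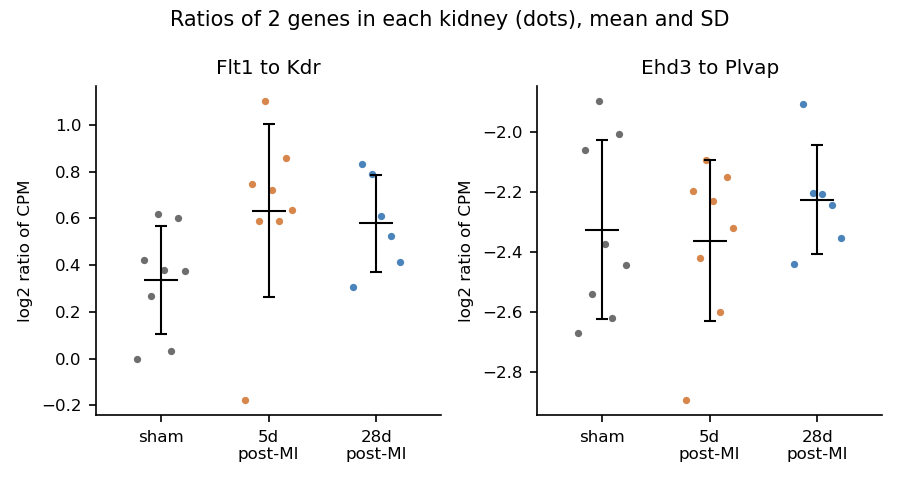
Log2 ratio of the CPM of Flt1 to Kdr (left) and of Ehd3 to Plvap (right) in each kidney (dots) by group (sham n = 8, 5d post-MI n = 8, 28d post-MI n = 6), with the group mean and 1 SD; neither vertical axis starts at a fixed origin, since log ratios have none. In the Flt1 to Kdr panel 1 kidney at 5d, replicate 1, lies at −0.177 and the other 7 lie between 0.589 and 1.103.

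Tek (chr4:94739289-94874976, plus strand) lay between 16.4 and 23.3 CPM in sham kidneys (median 18.5), between 13.6 and 25 at 5d (median 18.7) and between 18.5 and 26.4 at 28d (median 23.0). At 28d, 5 of 6 kidneys were above the sham mean of 19.5 ± 2.69 CPM (SD, n = 8) and 2 were above every sham kidney. In edgeR its log2 fold change was 0.011 (95% CI −0.22 to 0.24) at 5d, 0.22 (SE 0.12, 95% CI −0.030 to 0.47, adjusted p = 0.642, edgeR) at 28d and 0.21 (95% CI −0.043 to 0.46) between the times. With 39 to 82 counts per kidney, counting error gives a spread of 13.2% of the 15.9% seen within groups.

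Ehd3 (chr17:73804134-73832094, plus strand), a membrane-trafficking protein that in the kidney marks glomerular endothelium, was lower at 5d than at 28d by more than any other gene of the set, without passing the adjusted threshold. It lay between 15.9 and 29.1 CPM in sham kidneys (median 23.3), between 16.5 and 25.7 at 5d (median 19.5) and between 23.3 and 26.4 at 28d (median 24.1). All 6 kidneys at 28d were above the 5d mean of 20.1 ± 3.08 CPM (SD, n = 8), and 7 of the 8 kidneys at 5d were below all 6, while replicate 9, at 25.7 CPM, was within the range of 28d. The log2 fold change of 28d against 5d was 0.28 (SE 0.12, 95% CI 0.035 to 0.53, adjusted p = 0.468, edgeR), and 0.25 (adjusted p = 0.59, edgeR) without the kidneys with adrenal genes. Against sham it was −0.16 (95% CI −0.39 to 0.061) at 5d and 0.12 (95% CI −0.12 to 0.36) at 28d, and the sham kidneys covered the ranges of both infarct groups.

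Plvap (chr8:71497765-71511752, minus strand) forms the diaphragms of peritubular capillary pores and is largely missing from mature glomerular endothelium. It gave the most counts of the set, 223 to 454 per kidney. It lay between 100.3 and 137 CPM in sham kidneys (median 111.5), between 80.2 and 127 at 5d (median 105) and between 101 and 133 at 28d (median 116). At 5d, 4 of 8 kidneys were below every sham kidney, 3 of them between 94.4 and 99.9 CPM and the lowest, replicate 5, at 80.2. The log2 fold change was −0.098 (95% CI −0.27 to 0.073) at 5d and 0.003 without the kidneys with adrenal genes, and 0.046 (95% CI −0.14 to 0.23) at 28d. Between 28d and 5d, Plvap differed by 0.14 (95% CI −0.041 to 0.33), Egfl7 by 0.10 (95% CI −0.084 to 0.29), Kdr by 0.10 (95% CI −0.16 to 0.36), Flt1 by 0.073 (95% CI −0.21 to 0.36) and Pecam1 by 0.046 (95% CI −0.16 to 0.25) on the log2 scale.

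The ratio of Ehd3 to Plvap, a glomerular against a peritubular marker, gave no difference beyond the spread between kidneys. Its log2 mean was −2.32 ± 0.30 (SD, n = 8) in sham kidneys, −2.36 ± 0.27 (SD, n = 8) at 5d and −2.22 ± 0.18 (SD, n = 6) at 28d. The differences from sham were −0.036 at 5d (exact permutation test, p = 0.798) and 0.10 at 28d (exact permutation test, p = 0.474), and that between the times was 0.14 (exact permutation test, p = 0.319). Ehd3 was the exception in its list at 28d: of the 5 tested glomerular endothelial genes it was the only one with a positive log2 fold change against sham, and the other 4 lay between −0.64 and −0.002, so the ratio describes these 2 genes and not the capillary beds as a whole.

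Nos3 (endothelial nitric oxide synthase, chr5:24364810-24384474, plus strand) was near the limit of detection. Only 17 counts of it were found in all 22 kidneys, and 12 kidneys had 0 counts. The sham, 5d and 28d groups held 6, 5 and 6 counts in 4, 4 and 2 kidneys, and the highest kidney, 28d replicate 6, had 5 counts (1.99 CPM). A count of 0 allows up to 3 counts, which correspond to 0.809 to 1.33 CPM in these kidneys. With so few counts a difference in Nos3 was not detectable. The antisense gene Gm15587, on the opposite strand, shares 1040 exon bases with Nos3 but does not cover its annotated 3′ end. That 3′ end overlaps Atg9b on the opposite strand by 294 exon bases, and Atg9b itself had 2 counts over all kidneys. Depending on how the counting treated shared bases, reads in either overlap may have been left out of the genes' counts. Part of the low count of Nos3 could come from this, which was not tested.

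Other genes of the same pathways were read from fixed lists. Of 8 VEGF ligands and co-receptors, 6 were tested and 0 passed in each comparison, with medians of −0.051 at 5d, 0.004 at 28d and 0.068 between the times. Vegfa, the ligand that podocytes and tubule cells secrete, had a log2 fold change of 0.16 (SE 0.07, adjusted p = 0.531, edgeR) at 28d against sham and 0.16 (SE 0.071, adjusted p = 0.468, edgeR) at 28d against 5d. Nrp1, a co-receptor of Kdr, was at 0.091 (SE 0.065, adjusted p = 0.792, edgeR) at 5d. Of 6 partners of Tek, 4 were tested and 0 passed, and the ligand Angpt1 was at −0.24 at both times (adjusted p = 0.735 at 5d and 0.74 at 28d, edgeR). Tie1, a sister receptor of Tek, was at −0.29 (SE 0.15, adjusted p = 0.562, edgeR) between 28d and 5d.

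Of 11 genes of nitric oxide signalling, 7 were tested and 0 passed, with 6 of 7 negative at 5d (median −0.21) and 5 of 7 at 28d (median −0.25). Gucy1b1, a subunit of the guanylate cyclase that nitric oxide activates, was at −0.77 (SE 0.23, adjusted p = 0.267, edgeR) at 28d against sham and −0.61 (SE 0.24, adjusted p = 0.383, edgeR) against 5d. Cav1, the caveolar protein that binds endothelial nitric oxide synthase, was at −0.36 (SE 0.14, adjusted p = 0.514, edgeR) at 5d.

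All 20 listed genes of endothelial junctions and surface were tested and 0 passed in each comparison, with medians between −0.058 and 0.018. Eng, a co-receptor for TGF-beta, had −0.29 (SE 0.12, adjusted p = 0.549, edgeR) at 5d and 0.36 (SE 0.13, adjusted p = 0.334, edgeR) at 28d against 5d. Among endothelial transcription factors (12 of 14 tested) and Notch genes of vessels (6 of 9 tested) 0 passed. The glomerular endothelial list, which includes Ehd3, had 5 of 6 genes tested, all 5 negative at 5d (median −0.25) and 4 of 5 negative at 28d (median −0.39), with 0 passing. Pi16 and Tbx3 of this list were at −0.40 (SE 0.18, adjusted p = 0.521, edgeR) and −0.64 (SE 0.34, adjusted p = 0.621, edgeR) at 28d, beside 0.12 for Ehd3. As a description, log2 CPM averaged over the 6 genes of the list was 3.30 ± 0.13 (SD, n = 8) in sham kidneys, 3.12 ± 0.27 (SD, n = 8) at 5d and 3.06 ± 0.097 (SD, n = 6) at 28d. The peritubular and venous list, which includes Plvap, had 5 of 6 tested, 0 passing, and medians of −0.098 at 5d and 0.046 at 28d, and the mean log2 CPM of its 6 genes was 5.41 ± 0.13 (SD, n = 8) in sham kidneys, 5.25 ± 0.10 (SD, n = 8) at 5d and 5.42 ± 0.13 (SD, n = 6) at 28d. Of 10 activation genes 5 were tested and 0 passed, and Esm1, a VEGF-responsive product of endothelial tip cells, was at −0.57 (SE 0.17, adjusted p = 0.347, edgeR) at 5d.

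Among the lists of vessel genes 1 gene passed. Sema3g, a secreted semaphorin in the list of artery, arteriole and vasa recta genes, rose at 5d post-MI with a log2 fold change of 0.81 (SE 0.12, adjusted p = 0.00118, edgeR). At 28d against sham Sema3g was at 0.55 (SE 0.13, adjusted p = 0.119, edgeR) and did not pass, with 5 of 6 kidneys above every sham kidney. Between 28d and 5d it was at −0.26 (adjusted p = 0.534, edgeR). The other 7 tested genes of that list did not pass at 5d, and the list's median was 0.035. With the podocyte list as a covariate 0 of all genes passed at 5d, Sema3g included. The study's authors had already reported the rise of this gene at 5d in the same series of kidneys, by sequencing and by real-time PCR. The lists were chosen with earlier results of these data known, so the call for this gene is not an independent finding. Of 4 lymphatic endothelial genes tested 0 passed, and the chemokine Ccl21a was at −0.75 (SE 0.24, adjusted p = 0.311, edgeR) at 28d.

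Genes of other cells were read beside these. Podocyte genes, whose cells sit on the glomerular endothelium, were positive in 10 of 11 at 5d (median 0.16) and 9 of 11 at 28d (median 0.061), with 0 passing, and their summed level was 210 to 257 CPM in sham kidneys, 231 to 273 at 5d and 222 to 266 at 28d. In the list of mesangial, pericyte and smooth muscle genes 9 of 11 were negative at 5d and 11 of 11 at 28d, and 1 gene, the renin gene Ren1, passed, with a log2 fold change of −1.15 (adjusted p = 0.00886, edgeR) at 28d against 5d. Its mean was 144 CPM in sham kidneys, 264 at 5d and 119 at 28d, and against sham it was at 0.87 (adjusted p = 0.1, edgeR) at 5d, with 7 of 8 kidneys above every sham kidney, and −0.28 (adjusted p = 0.765, edgeR) at 28d. Leukocyte genes were negative in 6 of 6 at 5d (median −0.35) and summed to 103 to 142 CPM in sham kidneys, 82.0 to 123 at 5d and 96.0 to 141 at 28d. Of 6 platelet genes only Itga2b was tested, at 0.051 at 5d. Red cell genes were positive at 5d in 5 of 5 tested and 4 passed (edgeR), calls of which at least 3 were lost with any of the list covariates below. The sum of the red cell list was 2210 to 4130 CPM in sham kidneys, 4980 to 19100 at 5d and 1800 to 5140 at 28d. Fat cell genes were negative in 7 of 7 at both times against sham, with sums of 177 to 1090, 91.4 to 690 and 191 to 489 CPM, and 0 passed. With the fat cell, adrenal or podocyte list as a covariate, 0 of the 9 endothelial genes passed in any comparison. None passed without a covariate either, so this count cannot show the part of those cells. The fat cell list also differed by group (mean log2 CPM 5.153 in sham kidneys, 4.355 at 5d, 4.122 at 28d), so that covariate is tied to group. Correlation of the 9 genes within groups with the podocyte, mesangial, tubule, fat cell, red cell and leukocyte lists and total counts was also tested. These tests were added after seeing the data, and no correlation passed after adjustment. The lowest adjusted p were for the proximal tubule list with Pecam1 (Pearson's r −0.54, adjusted permutation p = 0.206) and with Cdh5 (−0.60, adjusted permutation p = 0.213). Beyond this, the part of these cells in the endothelial values was not tested.

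Whether the endothelial genes move together from kidney to kidney was examined within groups, after subtracting each group's mean log2 CPM, over 22 kidneys and 45 pairs of genes. After adjustment 3 pairs passed, all positive. Pecam1 and Plvap gave Pearson's r of 0.84 (permutation p = 3e-05, adjusted p = 0.00135) and Spearman's rho of 0.78 (permutation p = 6e-05), and r of 0.74 without the 2 kidneys farthest out. Cdh5 and Egfl7 gave r of 0.70 (permutation p = 0.00042, adjusted p = 0.00945) and rho of 0.70 (permutation p = 0.00075), and 0.72 without 2 kidneys. Flt1 and Ehd3 gave r of 0.63 (permutation p = 0.00203, adjusted p = 0.0305) and rho of 0.60 (permutation p = 0.00528, adjusted p = 0.0792), and 0.53 without 2 kidneys. Without the 3 kidneys with adrenal genes r was 0.75, 0.67 and 0.64 for these pairs, and the last did not pass (adjusted permutation p = 0.0649).

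The remaining pairs did not pass. Tek and Flt1 had r of 0.55 (permutation p = 0.0193, adjusted p = 0.155), which was 0.34 without 2 kidneys. Cdh5 and Ehd3 had the lowest value, −0.55 (permutation p = 0.025, adjusted p = 0.155), with rho of −0.51 (permutation p = 0.0317). Over the 36 pairs of tested genes the median r was 0.26, and 26 were positive. Flt1 and Kdr, which bind the same ligand, had r of 0.40. All pairs share the kidney's piece of tissue and its scaling.

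**Figure D4:**
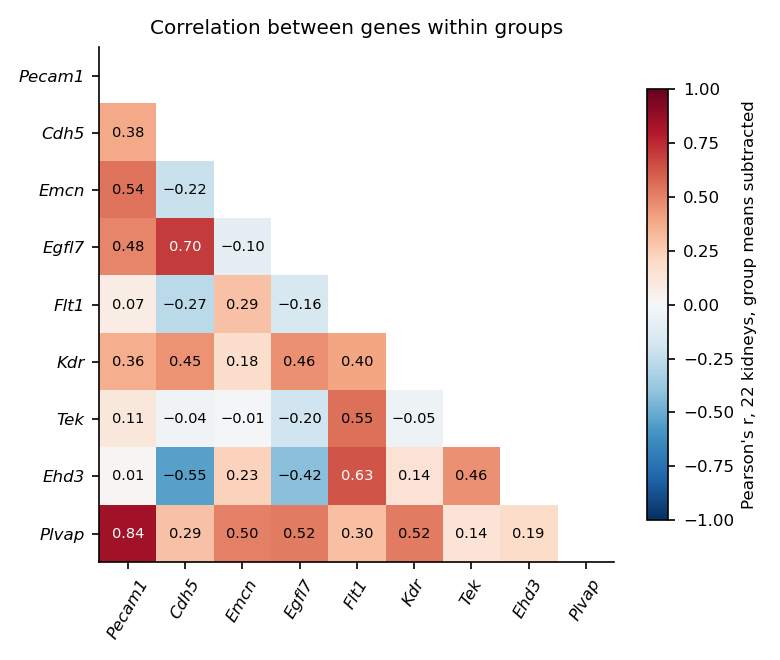
Pearson's r between each pair of the 9 tested endothelial genes over 22 kidneys after subtracting group means (colour scale from −1 to 1, values printed in the cells). Pecam1 with Plvap (0.84), Cdh5 with Egfl7 (0.70) and Flt1 with Ehd3 (0.63) are the pairs that passed, and Cdh5 with Ehd3 is the lowest at −0.55.

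**Figure D5:**
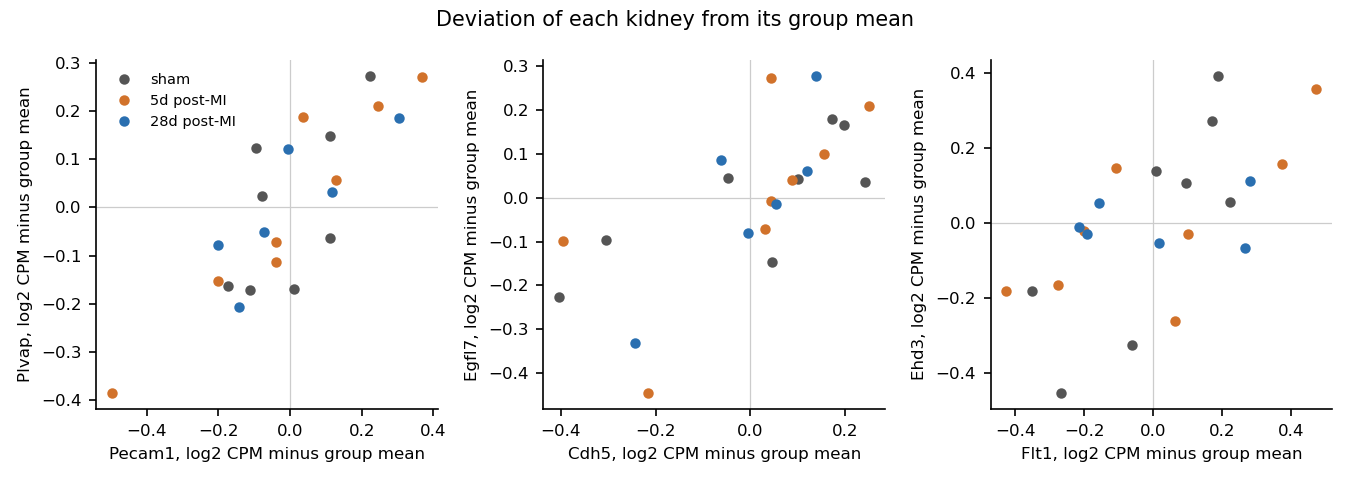
Deviation of each kidney's log2 CPM from its group mean for the 3 pairs that passed, with sham kidneys in grey (n = 8), 5d post-MI in orange (n = 8) and 28d post-MI in blue (n = 6). The lowest point of the Pecam1 and Plvap panel is 5d post-MI replicate 5, one of the kidneys with adrenal genes.

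The median deviation of the 9 genes from their group means was lowest in 5d post-MI replicate 5, at −19.4%, where Pecam1, Emcn and Plvap were each the lowest of the group, and highest in 5d post-MI replicate 2, at 14.6%, where all 9 genes were above the group mean. The sum of the 10 genes was 413 to 522 CPM in sham kidneys (median 458), 349 to 492 at 5d (median 418) and 446 to 500 at 28d (median 457), and the 3 ranges overlapped.

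The genes outside the set whose levels followed the mean of the set most closely, by Pearson's r of log2 CPM within groups over 22 kidneys, were Adgrf5 (0.74), AC166779.2 (0.73), Eif3f (0.70), Anxa3 (0.69), Id3 (0.69), Srgn (0.68), Hspa12b (0.67) and Ptprb (0.67). They were picked as the closest of all tested genes, so these values are a description. Adgrf5 and Ptprb, an adhesion receptor and the endothelial phosphatase that acts on Tek, also stand in the endothelial lists. The closest gene to a single member was Prodh, an enzyme of proline breakdown, for Flt1 (0.84), Map3k1 for Pecam1 (0.82), Gm6548 for Tek (0.81), Msi2 for Cdh5 (0.80), Pvr for Kdr (0.78), Erlec1 for Emcn (0.77), St6galnac4 for Egfl7 (0.75), 1190002N15Rik for Plvap (0.73) and Nat8f6 for Ehd3 (0.72).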

How the data were processed

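Libraries were made by MACE (Massive Analysis of cDNA Ends), with unique molecular identifiers. The authors trimmed reads with cutadapt, mapped them and counted transcripts with HTSeq. The study's methods name mm10 and the submitters' processing notes name mm39 with Bowtie2, so gene positions are those of GENCODE M21 on GRCm38, matched by identifier, and the files' own build is unsettled. The strand setting of the counting is not given in the sources used here. The authors deposited whole-number counts for 56941 gene identifiers, of which 51948 were matched to a symbol. Values the authors deposited under the name tpm equal the count scaled to each kidney's total, that is CPM (within 5e-06), with no division by gene length, and were not used for tests. Of 48 value columns 44 were used, because 4 share a name and could not be assigned to 2 kidneys (1 at 5d, 1 at 28d).

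R 4.3.3 with edgeR 4.0.16 (filterByExpr, minimum count 10, TMM, robust quasi-likelihood F test, all 3 groups in one fit, Benjamini-Hochberg), with limma 3.58.1 and DESeq2 1.42.0 as alternatives, and scipy 1.17.1 in Python 3.11.15 were used. Standard errors were derived from F (the log2 fold change over its square root). Log2 CPM used a prior count of 2. Within-group correlations used 100000 permutations of kidneys within groups. Replicates are separate mice, and no 2 of 71 pairs within groups were alike within sampling noise. Scripts were tested on simulated data. A minimum of 3 counts served as the limit that 0 counts allow. This limit covers counting error only, whereas the 95% confidence intervals of fold changes include the spread between kidneys.

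The 10 genes and all lists were chosen with earlier results of these data known. The text names all 10 genes, at most the 2 genes of lowest p per list and comparison, the 8 genes closest to the set's mean and the closest genes to each member. Slc5a2 is named for its low count, and overlapping genes for their position.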

Additional observations from a re-analysis of the deposited data

Results flagged for a closer look

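For the 9 tested genes in 3 groups, 27 sets of kidneys were examined for a single kidney far from the others, and 2 were found, both for Emcn. At 5d post-MI, replicate 5 was at 33.5 CPM, and the nearest of the other 7 kidneys at 47.8. At 28d post-MI, replicate 2 was at 46.9 CPM, and the nearest of the other 5 at 57.2. Chance gives about 1 in 20 such sets. The first of these kidneys is one with adrenal genes and was also the lowest of its group for Pecam1 and Plvap. Without it the log2 fold change of Emcn at 5d was −0.045, and without the second that at 28d was 0.11, and neither passed. Whether tissue other than kidney took part in the first was not tested.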

How the results depend on the processing

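No endothelial gene passed under any of 34 alternatives (918 values, lowest adjusted p = 0.244, for Kdr at 5d without a filter on low counts, edgeR). DESeq2 gave no adjusted p for 8 of the 9 genes at 28d against sham. The sign held in 888 of the 918 values and turned in 30, none larger than 0.087. With the fat cell covariate Flt1 and Tek were at −0.014 and −0.010 at 5d and Plvap at −0.025 at 28d. With the podocyte covariate these were −0.087, −0.027 and −0.014. Egfl7 at 28d was 0.008 with the adrenal covariate. Without the 3 kidneys with adrenal genes, chosen after seeing the data, Plvap was 0.003 at 5d, Egfl7 0.011 at 28d and Pecam1 −0.020 between the times. With single kidneys left out, values at 5d ranged from −0.051 to 0.085 for Flt1 and from −0.052 to 0.071 for Tek, Egfl7 at 28d from −0.105 to 0.012, and between the times Pecam1 from −0.022 to 0.104 and Cdh5 from −0.084 to 0.003. Other values moved by over 1.5 times without turning: at 5d Pecam1 ranged from −0.210 to −0.087, Emcn from −0.152 to −0.045 and Plvap from −0.138 to −0.047 (all 3 nearest 0 without 5d replicate 5), Ehd3 from −0.230 (without sham replicate 1) to −0.096 (without sham replicate 8) and Egfl7 from −0.188 to −0.089 (without 5d replicate 7). At 28d Pecam1 ranged from −0.174 to −0.065, Emcn from 0.031 to 0.108, Flt1 from 0.044 (without 28d replicate 3) to 0.144, Plvap from 0.007 to 0.087 and Ehd3 from 0.052 (without sham replicate 1) to 0.184 (without sham replicate 8). Between the times the lowest values were 0.102 for Emcn, 0.093 for Plvap, 0.043 for Egfl7, 0.039 for Kdr and 0.016 for Flt1. The ratio of Ehd3 to Plvap ranged from −0.085 to 0.040 at 5d, from 0.037 (without 28d replicate 3) to 0.162 at 28d and from 0.061 to 0.180 between the times, and that of Flt1 to Kdr from 0.229 to 0.412 at 5d and from −0.171 to 0.012 between the times. In the pairs of genes, 3 passed on variance-stabilized counts too, and 2 without the kidneys with adrenal genes.

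The replicate numbers do not pair kidneys: deviations of same-numbered kidneys correlated between −0.127 and 0.09 (18 pairs). With the replicate block no endothelial gene passed, Flt1 and Tek were −0.059 and −0.071 at 5d, Emcn −0.011 at 28d, and Pecam1 −0.007 and Cdh5 0.003 between the times, and over all genes 2, 24 and 80 were called.

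Counts over all genes, in the order 5d, 28d and between the times (9, 3 and 53 above), were 36, 30 and 91 with DESeq2, 80, 94 and 160 without a filter, and 2, 31 and 26 with only the 2 groups compared. With voom 22 and 11 were called against sham, with at least 1 CPM in at least 6 kidneys 6 at 28d. With a covariate 1 (fat cell), 1 (adrenal) and 0 (podocyte) were called at 5d and 1 (adrenal) at 28d, and without the kidneys with adrenal genes 2 and 1. Without single kidneys they ranged from 1 to 38, 0 to 29 and 41 to 84. The cause was not tested.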
